A study of Mus musculus with 6 samples.

Results

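The genes described here are 40 antioxidant, glutathione and NRF2 genes, found by symbol and measured in white adipose tissue of mice lacking KSR2. They were chosen with earlier results of these data known, as were the lists of further genes set beside them. A single-gene probe set was found for 35 of the 40, among 18193 genes measured in all. Prdx1 and Ftl1 were represented by probe sets that the platform annotation assigns to several genes, and for Prdx5, Prdx6 and G6pdx no probe set was found in the annotation used, so these 5 members have no value here. Each measured member was read from its brightest single-gene probe set, without a filter on low values.

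Cells meet peroxides and reactive electrophiles with linked systems. Glutathione, made from cystine that the cell imports, is spent by glutathione peroxidases on peroxides and by glutathione transferases on electrophiles such as lipid aldehydes, while thioredoxin and the peroxiredoxins reduce peroxides by a separate thiol chain fed by NADPH. The transcription factor NRF2, encoded by Nfe2l2 and held back by KEAP1, binds antioxidant response elements in front of many of these genes. In white fat, adipocytes carry transferases that clear products of lipid peroxidation, and macrophages carry heme oxygenase and the NADPH oxidase that makes superoxide.

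The animals were 3 KSR2-/- mice, set against 3 WT mice. All were C57Bl6 females aged 6 months, and RNA of each mouse went to 1 Affymetrix array. KSR2 is a scaffold of the Raf-MEK-ERK cascade. The labels name no fat depot, no deleted exons, no other allele and no treatment. The animal numbers in the labels form a higher-numbered series (KSR2-/- mice 1 and 2, WT mice 1 and 2) and a lower-numbered one (KSR2-/- mouse 3, WT mouse 3).

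Intensities were deposited on a linear scale after RMA and are given here as log2, where a difference of 1 is a doubling. The array of WT mouse 3 had a Gapdh 3' signal 4.18 log2 above the 5' signal, a sign of RNA degradation, where the other arrays had 0.07 to 1.46. The Ksr2 probe set read 4.47, 4.28 and 4.26 log2 in KSR2-/- mice 1 to 3 and 4.74, 4.04 and 4.47 in WT mice 1 to 3, a low signal in both groups. Whether its probes lie in the deleted part is not stated, so it does not check the genotype labels. As a check of the tissue, all 8 measured adipocyte markers read above the median gene mean (5.96) on every array, with array means of 11.04 to 12.28 in KSR2-/- fat and 11.63 to 12.01 in WT fat. At an adjusted p under 0.05 by limma, 1 of the 18193 genes was called (0.0055%), and it was not a member. Genes described in full below therefore carry the unadjusted p and the adjusted p over all genes, and the others their difference and its SE.

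In KSR2-/- fat all 10 glutathione transferase members had lower mean signals than in WT fat, with a median difference of -0.83 log2, and the 25 other members had a median difference of 0.17 log2. Over all genes the median was -0.04 log2, and 55.6% were lower. Among the others, 19 were higher and 6 lower. The higher ones were led by Hmox1, Srxn1, Mt2, Txnrd1 and Gclm, and the lower ones by Gpx3. None of the 35 members passed limma at an adjusted p under 0.05 (0.248 to 0.964), so every member's difference is a value that did not pass the test. Of the members, 11 had an unadjusted limma p under 0.05, 5 higher and 6 lower, where 12.1% of all genes met that criterion (6.71% higher and 5.38% lower). The 2 groups did not overlap in 12 members, 4 higher and 8 lower, against 16.3% of all genes (7.72% higher and 8.56% lower).

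**Figure D1:**
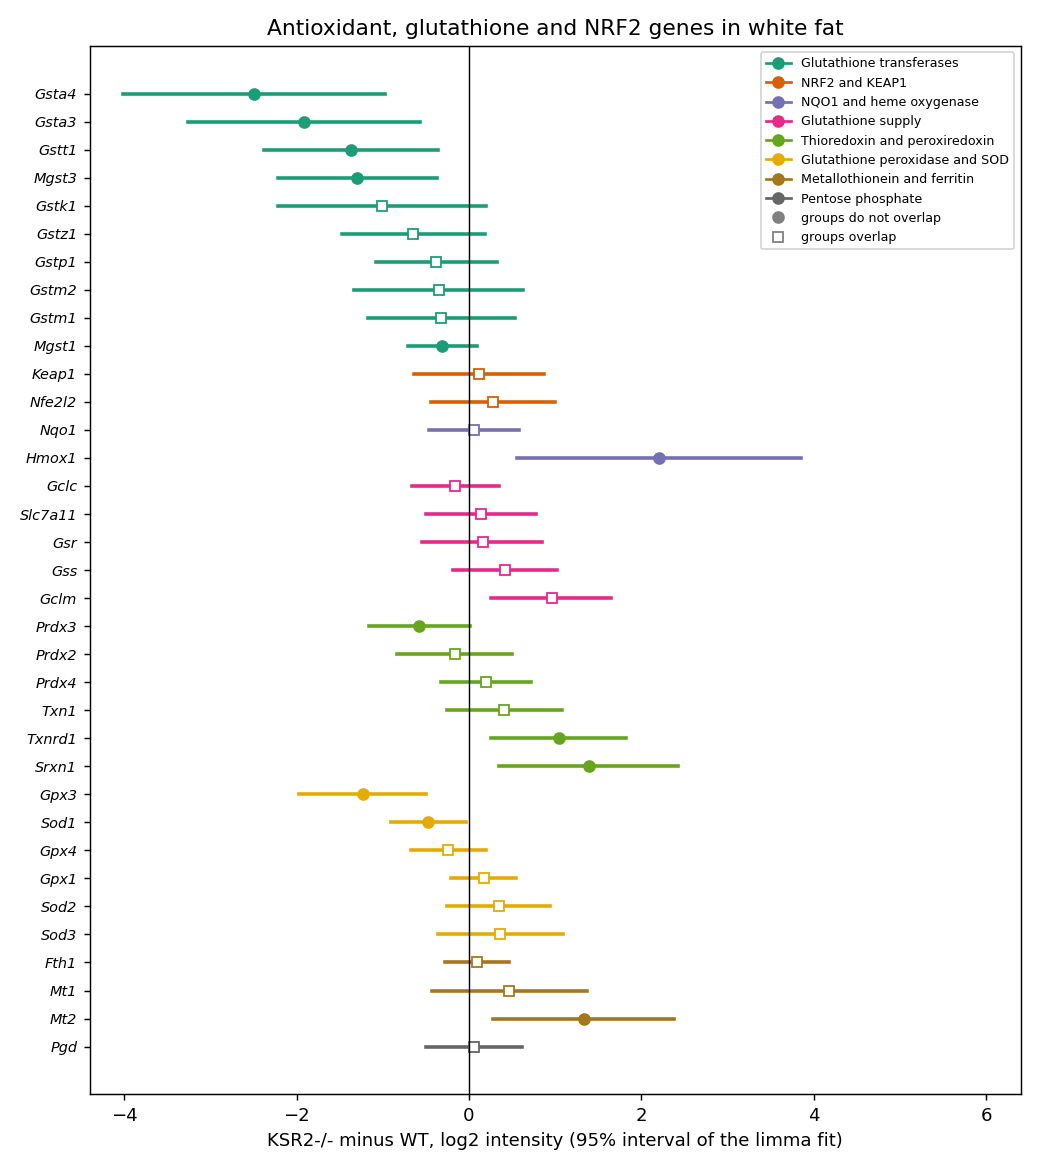
KSR2-/- minus WT difference in log2 intensity for the 35 measured members, grouped by role, with the 95% interval of the limma fit as bars. Filled circles mark members whose 3 KSR2-/- and 3 WT arrays did not overlap. All 10 glutathione transferases lie left of 0, from -2.50 to -0.31, and Hmox1 lies farthest to the right at 2.21.

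The alpha-class transferase Gsta4, known for conjugating the lipid peroxidation product 4-hydroxynonenal, had the largest difference of the members. Gsta4 measured 5.94, 7.08 and 8.65 log2 in KSR2-/- mice 1 to 3, and 9.23, 10.26 and 9.68 in WT mice 1 to 3. All KSR2-/- values lay below all WT values, with KSR2-/- mouse 3 closest to them. The means were 7.22 ± 1.36 in KSR2-/- fat and 9.72 ± 0.51 in WT fat (SD, n = 3 each), 5.66-fold lower in KSR2-/- (-2.50 log2, SE 0.65, unadjusted p = 0.00598, limma adjusted p = 0.248).

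Gsta3, an alpha-class enzyme known in mice for detoxifying aflatoxin epoxide, measured 7.31, 7.49 and 9.41 in KSR2-/- mice 1 to 3, against 9.70, 10.59 and 9.67 in WT mice 1 to 3. The groups did not overlap, and KSR2-/- mouse 3 lay just under the WT range. The difference was -1.91 log2 (SE 0.57, unadjusted p = 0.0120, limma adjusted p = 0.285), a 3.77-fold lower signal, and a second Gsta3 probe set gave -2.38.

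Mgst3, a membrane-bound transferase with peroxidase activity, measured 9.01, 9.01 and 10.31 in KSR2-/- mice 1 to 3 and 11.07, 10.81 and 10.32 in WT mice 1 to 3. KSR2-/- mouse 3 and WT mouse 3 were nearly equal, so the groups were barely apart. The difference was -1.30 log2 (SE 0.39, unadjusted p = 0.0126, limma adjusted p = 0.287), and its second probe set gave -0.62.

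The theta-class gene Gstt1, whose enzyme acts on small halogenated compounds, measured 8.00, 8.81 and 9.67 in KSR2-/- mice 1 to 3, against 9.92, 10.69 and 9.99 in WT mice 1 to 3. All KSR2-/- values again lay below all WT values. The difference was -1.37 log2 (SE 0.43, unadjusted p = 0.0151, limma adjusted p = 0.302), 2.58-fold lower.

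The other 6 transferases had smaller differences relative to their spread, and their unadjusted p ran above 0.05. Gstk1, the kappa-class enzyme of mitochondria and peroxisomes, differed by -1.01 (SE 0.51) and Gstz1, which isomerizes maleylacetoacetate in tyrosine breakdown, by -0.65 (SE 0.35). The pi-class Gstp1 differed by -0.38 (SE 0.30) and the membrane-bound Mgst1 by -0.31 (SE 0.17), and the groups did not overlap for Mgst1.

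The mu-class genes Gstm1 and Gstm2 split the KSR2-/- animals. Gstm1 measured 10.29, 9.99 and 11.44 in KSR2-/- mice 1 to 3, against 10.78, 10.95 and 10.94 in WT mice 1 to 3. Gstm2 measured 8.62, 8.80 and 10.23 in KSR2-/- mice 1 to 3, against 9.39, 9.54 and 9.77 in WT mice 1 to 3. In both, KSR2-/- mice 1 and 2 lay below all WT mice and KSR2-/- mouse 3 above them, which left mean differences of -0.32 (SE 0.36) and -0.35 (SE 0.41). Transferases of 1 class are close in sequence, and cross-hybridization between their probe sets was not tested.

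Of 15 further transferase genes listed for the comparison, 13 were measured, and 12 of these were lower in KSR2-/- fat, with a median of -0.55 log2. None passed limma over all genes (adjusted p 0.297 to 0.942). At an unadjusted p under 0.05 there were 4 lower and 1 higher, against 5.38% and 6.71% of all genes. The 4 lower ones, whose groups did not overlap (8.56% of all genes were lower in that way), were Gsto2 (-1.11, SE 0.34), Gstt2 (-1.06, SE 0.34), Gsta2 (-0.68, SE 0.27) and Gstt3 (-0.54, SE 0.21). Gsta2 read below the 20th percentile of all values on every array but that of WT mouse 2, so its difference lies at the low end of the arrays. Gsto2 read below that percentile (3.44) in KSR2-/- mouse 1, at 3.32. The 1 higher, named after its value was seen, was Hpgds, the hematopoietic prostaglandin D synthase of the sigma class. Hpgds measured 6.47, 6.85 and 4.07 in KSR2-/- mice 1 to 3, against 3.39, 3.93 and 4.23 in WT mice 1 to 3. Only KSR2-/- mice 1 and 2 stood above the WT animals in Hpgds, and KSR2-/- mouse 3 lay inside their range.

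By class, over members and further genes, the 3 alpha genes differed by -2.50 to -0.68, the smallest being the dim Gsta2, and the 3 theta genes by -1.37 to -0.54. The groups did not overlap in any of the 3 alpha and 3 theta genes, Gsta2 among them at a low signal. Over all genes, 8.56% were lower without overlap. The 7 mu genes differed by -0.94 to -0.32 and the groups overlapped in all of them. The 3 microsomal genes differed by -1.30 to -0.31, and the groups did not overlap in Mgst1 and, barely, in Mgst3. A second Mgst1 probe set gave -0.04. Of the 2 omega genes, Gsto2 differed by -1.11 and Gsto1 by -0.05 (SE 0.14), with a second Gsto1 probe set at 0.19. The pi, kappa and zeta classes had 1 gene each, the members Gstp1, Gstk1 and Gstz1 given above. Within the lower-numbered pair, KSR2-/- mouse 3 was lower than WT mouse 3 in all alpha, theta, microsomal, omega, pi and kappa genes. Mgst3 was nearly equal there (-0.02). KSR2-/- mouse 3 was lower in 2 of the 7 mu genes and higher in Gstz1 of the zeta class (0.26). Each side of this pair is 1 array, and the array of WT mouse 3 had the Gapdh sign of RNA degradation.

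Among the members of the NRF2 and thiol systems the differences ran the other way for a few inducible enzymes. Hmox1, heme oxygenase 1, which breaks heme down to biliverdin, iron and carbon monoxide, measured 10.10, 9.11 and 7.03 in KSR2-/- mice 1 to 3, against 6.48, 6.43 and 6.70 in WT mice 1 to 3. All KSR2-/- values were above all WT values, KSR2-/- mice 1 and 2 by more than KSR2-/- mouse 3. The difference was 2.21 log2 (SE 0.70, unadjusted p = 0.0155, limma adjusted p = 0.302), a 4.62-fold higher signal.

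Srxn1, sulfiredoxin, which repairs overoxidized peroxiredoxins, measured 9.20, 8.95 and 7.49 in KSR2-/- mice 1 to 3 and 6.84, 7.34 and 7.29 in WT mice 1 to 3. The groups did not overlap. The difference was 1.39 log2 (SE 0.44, unadjusted p = 0.0157, limma adjusted p = 0.302), and its 3 other probe sets gave 0.00 to 1.04.

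Txnrd1, the cytosolic thioredoxin reductase, measured 9.43, 9.22 and 8.40 in KSR2-/- mice 1 to 3, against 7.50, 8.35 and 8.07 in WT mice 1 to 3. KSR2-/- mouse 3 lay just above the highest WT animal. The difference was 1.04 log2 (SE 0.33, unadjusted p = 0.0160, limma adjusted p = 0.303), and the 2 other Txnrd1 probe sets gave -0.14 and 0.15.

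Gclm, the modifier subunit of the enzyme that starts glutathione synthesis, measured 8.98, 8.81 and 8.20 in KSR2-/- mice 1 to 3 and 7.39, 8.21 and 7.53 in WT mice 1 to 3. KSR2-/- mouse 3 and WT mouse 2 were level, so the groups overlapped at that point. The difference was 0.96 log2 (SE 0.29, unadjusted p = 0.0137, limma adjusted p = 0.296), and its second probe set gave 0.24.

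The catalytic subunit gene Gclc differed by -0.16 (SE 0.21), glutathione synthetase Gss by 0.42 (SE 0.26), glutathione reductase Gsr by 0.16 (SE 0.29) and the cystine importer Slc7a11 by 0.14 (SE 0.27). A second Gclc probe set gave 0.32. Slc7a11 read 2.54 to 3.50 in KSR2-/- fat and 2.62 to 2.98 in WT fat, mostly below the 20th percentile of all values (3.44), so its level was near the low end of the arrays. Nfe2l2 itself differed by 0.28 (95% interval -0.44 to 1.00), its inhibitor Keap1 by 0.12 (-0.64 to 0.87) and Nqo1, a quinone reductase widely used as a marker of NRF2 activity, by 0.06 (-0.46 to 0.58). The groups overlapped for all 3 genes.

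To show where these members carry the NRF2 recognition letters, RefSeq promoter windows (GRCm38.p6, 250 bases before to 50 after a start) were searched on both strands for the antioxidant response element core TGACNNNGC. A window was found for 34 of the 40 members, Hmox1 and Gsta4 not among them. The core was present for 11 of these 34 (32.4%), against 14.0% of the 27025 genes with a window. The members were listed as antioxidant and NRF2 genes, so their higher share is not a finding of these arrays. The windows of Gclm, Txnrd1, Mt2 and Gsta3 are printed as the measured members with the core before the start and the largest differences, and that of Mgst3 as a lower member without it. Each gives the 250 bases before the start, 5′ to 3′ on the strand of the gene, with the core in capitals (its reverse complement for Gclm and Txnrd1).
Gclm (chr3:122245307-122245556, plus strand): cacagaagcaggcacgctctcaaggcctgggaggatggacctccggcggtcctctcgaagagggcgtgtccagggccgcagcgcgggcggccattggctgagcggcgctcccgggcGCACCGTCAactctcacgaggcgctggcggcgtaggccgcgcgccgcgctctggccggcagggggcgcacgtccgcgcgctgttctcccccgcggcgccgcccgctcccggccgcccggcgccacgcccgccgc
Txnrd1 (chr10:82858956-82859205, plus strand): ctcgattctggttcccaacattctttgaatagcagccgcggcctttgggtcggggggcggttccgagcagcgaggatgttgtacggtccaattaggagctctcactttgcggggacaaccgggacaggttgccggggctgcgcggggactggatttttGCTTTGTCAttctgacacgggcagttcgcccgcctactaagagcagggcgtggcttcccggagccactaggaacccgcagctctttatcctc
Mt2 (chr8:94172368-94172617, plus strand): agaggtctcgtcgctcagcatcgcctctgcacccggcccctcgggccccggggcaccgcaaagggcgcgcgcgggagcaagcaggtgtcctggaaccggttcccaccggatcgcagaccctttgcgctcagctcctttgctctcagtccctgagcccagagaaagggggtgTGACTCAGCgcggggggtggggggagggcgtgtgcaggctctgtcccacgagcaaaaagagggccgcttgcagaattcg
Gsta3 (chr1:21240335-21240584, plus strand): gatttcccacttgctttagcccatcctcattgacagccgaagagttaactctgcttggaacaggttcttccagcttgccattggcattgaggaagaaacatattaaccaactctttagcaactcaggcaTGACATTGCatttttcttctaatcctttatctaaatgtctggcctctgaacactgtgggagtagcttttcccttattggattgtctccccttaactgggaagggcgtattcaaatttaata
Mgst3 (chr1:167393842-167394091, minus strand): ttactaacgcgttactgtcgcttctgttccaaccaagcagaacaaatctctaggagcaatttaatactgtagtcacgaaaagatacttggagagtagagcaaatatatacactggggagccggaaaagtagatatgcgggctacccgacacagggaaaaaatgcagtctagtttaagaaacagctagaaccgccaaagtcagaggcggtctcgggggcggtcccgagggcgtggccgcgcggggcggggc

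The core began 134 bases before the start in Gclm, 92 in Txnrd1, 79 in Mt2 and 121 in Gsta3. The Txnrd1 window is 1 of its 3 annotated starts, and the other 2 windows held no core. In Mt2 the core overlaps the AP-1 site TGACTCA, which 5.9% of all genes with a window and 4 of the 34 members hold. Srxn1 held the core behind its start, in the stretch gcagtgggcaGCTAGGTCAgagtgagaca (chr2:152105542-152105570, plus strand, reverse complement in capitals). The other members with the core were Nfe2l2, Prdx1, Mgst1, Sod1, G6pdx and Pgd. Members with the core thus had both higher signals (Gclm, Txnrd1, Srxn1, Mt2) and lower ones (Gsta3, Mgst1, Sod1) in KSR2-/- fat, none past the adjusted threshold. A match gives letters in a window and not a measured site.

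**Figure D2:**
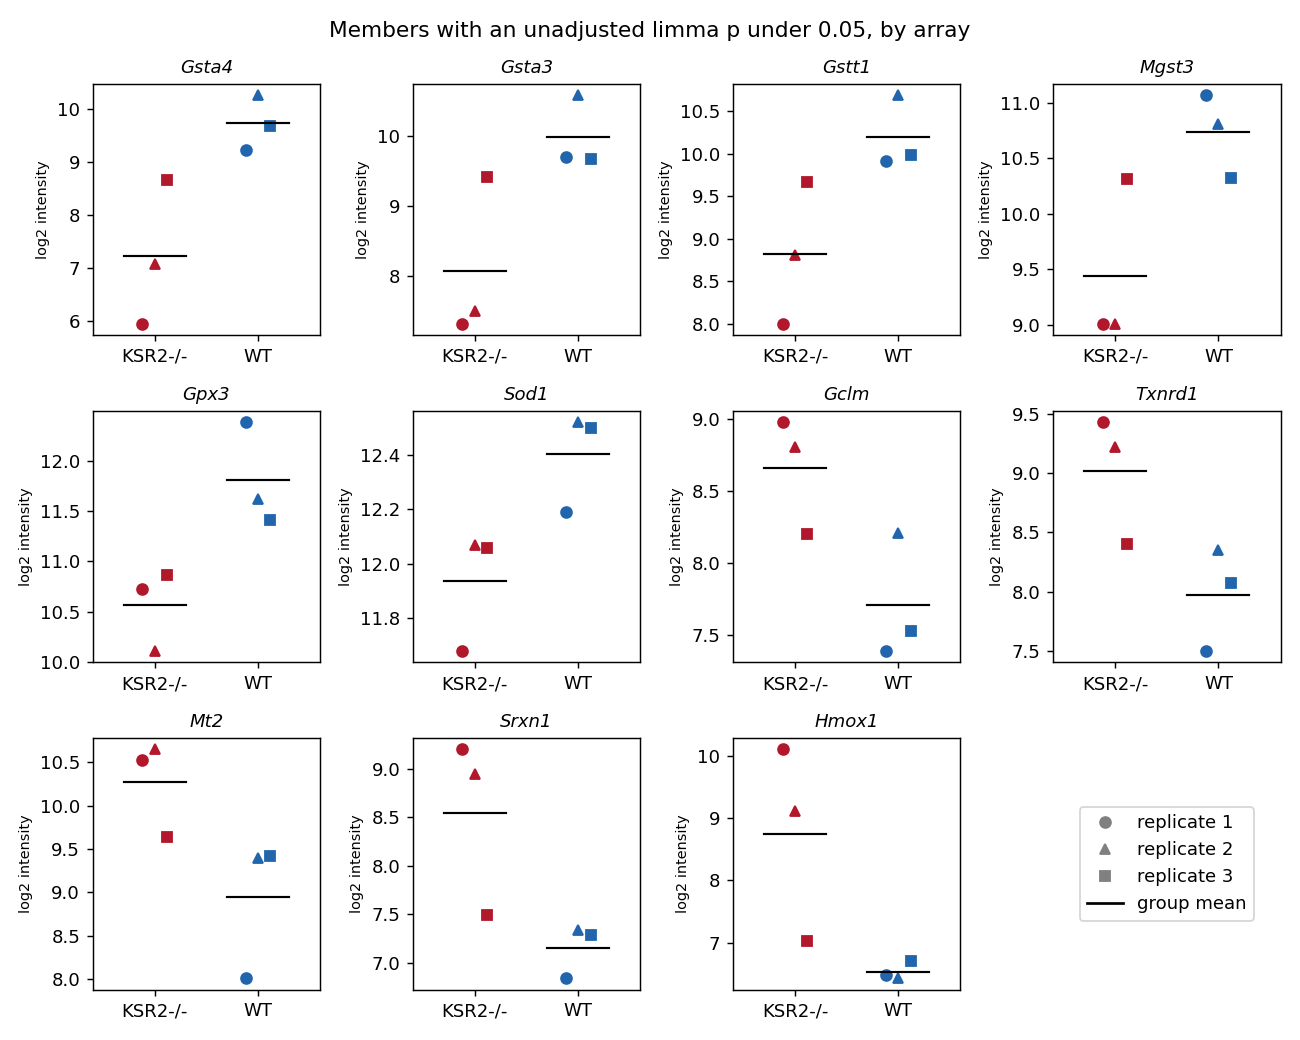
Log2 intensity on each array for the 11 members with an unadjusted limma p under 0.05, with a separate axis for each gene, KSR2-/- in red and WT in blue, a marker shape for each replicate number and a black line for each group mean. KSR2-/- mouse 3 (square) is the KSR2-/- array nearest to the WT arrays in every panel but that of Sod1, where KSR2-/- mouse 2 is as near.

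Metallothioneins bind zinc and copper and scavenge radicals, and ferritin stores iron. Mt2 measured 10.53, 10.65 and 9.64 in KSR2-/- mice 1 to 3, against 8.01, 9.40 and 9.42 in WT mice 1 to 3. The groups did not overlap, with WT mouse 1 far below the other WT animals. The difference was 1.33 log2 (SE 0.45, unadjusted p = 0.0203, limma adjusted p = 0.315). Mt1 measured 10.91, 11.42 and 10.69 in KSR2-/- mice 1 to 3, against 9.69, 10.88 and 11.04 in WT mice 1 to 3, with overlapping groups (0.47, SE 0.38). The ferritin heavy chain gene Fth1 differed by 0.09 (SE 0.16).

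The thioredoxin gene Txn1 differed by 0.41 (SE 0.28), and a second Txn1 probe set gave -0.53, the 1 case among the members in which another probe set had the opposite sign by more than 0.5. By any amount, this was so for 8 of the 23 members with more than 1 single-gene probe set. Among peroxiredoxins, the mitochondrial Prdx3 measured 9.72, 10.34 and 10.35 in KSR2-/- mice 1 to 3 and 10.45, 11.06 and 10.63 in WT mice 1 to 3. Its groups did not overlap (-0.58, SE 0.25, unadjusted p = 0.0517, limma adjusted p = 0.418). The cytosolic Prdx2 differed by -0.16 (SE 0.28) and Prdx4, the form of the endoplasmic reticulum, by 0.20 (SE 0.22). A second Prdx2 probe set gave 0.18. Pgd, which makes NADPH in the pentose phosphate pathway, differed by 0.06 (SE 0.24).

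Gpx3, the secreted glutathione peroxidase of plasma, measured 10.73, 10.11 and 10.86 in KSR2-/- mice 1 to 3 and 12.38, 11.62 and 11.41 in WT mice 1 to 3. All KSR2-/- arrays lay below all WT arrays, KSR2-/- mouse 3 included. The difference was -1.23 log2 (SE 0.31, unadjusted p = 0.00545, limma adjusted p = 0.248), 2.35-fold lower. Sod1, the cytosolic copper-zinc superoxide dismutase, measured 11.68, 12.07 and 12.06 in KSR2-/- mice 1 to 3 and 12.19, 12.52 and 12.50 in WT mice 1 to 3. These groups were also apart, by a smaller difference of -0.47 log2 (SE 0.18, unadjusted p = 0.0387, limma adjusted p = 0.382), and its 4 other probe sets gave -0.90 to 0.11.

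The groups overlapped for the other peroxidase and dismutase members. The mitochondrial Sod2 differed by 0.35 (SE 0.25), the extracellular Sod3 by 0.36 (SE 0.31), the cytosolic Gpx1 by 0.17 (SE 0.16) and Gpx4, which reduces phospholipid hydroperoxides, by -0.24 (SE 0.19). The 3 other Sod2 probe sets gave -0.46 to 0.19, and a second Sod3 probe set gave 0.95. Of the 6 peroxidase and dismutase members, the secreted Gpx3 and the cytosolic Sod1 were the 2 with separated groups, both lower. Over all genes, 8.56% were lower in that way.

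On each array the 10 transferases were summarized as their mean difference from the WT mean. This was -1.61, -1.26 and -0.15 log2 in KSR2-/- mice 1 to 3, and -0.21, 0.25 and -0.04 in WT mice 1 to 3. The 25 other members gave 0.35, 0.42 and 0.11 in KSR2-/- mice 1 to 3, and -0.28, 0.18 and 0.10 in WT mice 1 to 3. The transferases minus the others were -1.97, -1.69 and -0.26 in KSR2-/- mice 1 to 3 against 0.07, 0.07 and -0.14 in WT mice 1 to 3, so the KSR2-/- mice were below the WT mice in this contrast, KSR2-/- mouse 3 by little. No p is given for these means, because the members were chosen with earlier results known.

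**Figure D3:**
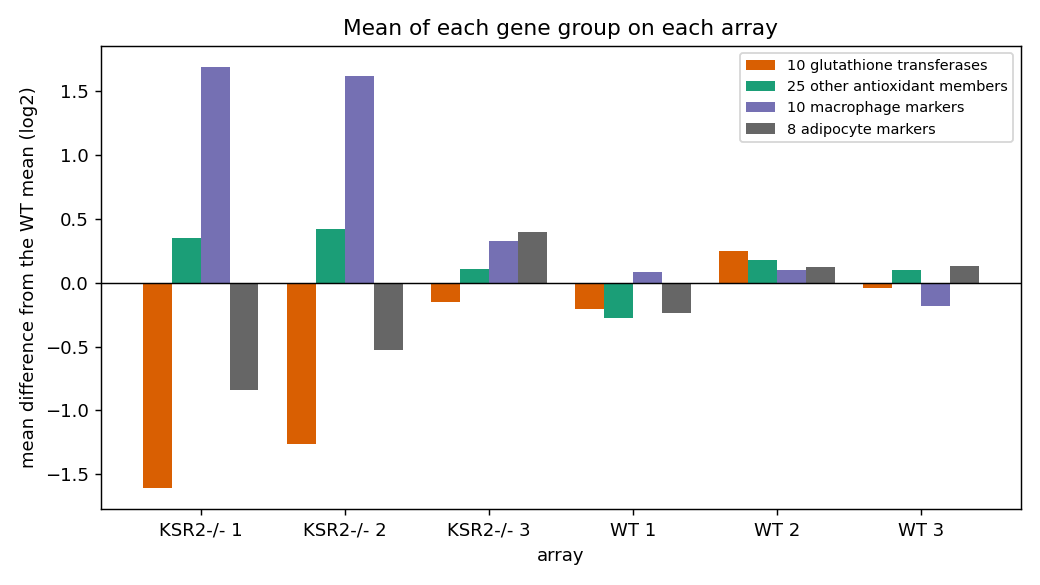
Mean difference from the WT mean (log2, bars from 0) on each array for the 10 glutathione transferases, the 25 other antioxidant members, 10 macrophage markers and 8 adipocyte markers. The transferase bars reach -1.61 and -1.26 in KSR2-/- mice 1 and 2 and -0.15 in KSR2-/- mouse 3, and the macrophage bars reach 1.69, 1.62 and 0.33 in the same animals.

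Marker lists of other cell types were read on the same arrays, and none of their genes passed limma over all genes (lowest adjusted p = 0.212 among macrophage and 0.325 among adipocyte markers). All 10 macrophage markers were higher in KSR2-/- fat, with array means of 9.08 to 10.43 in KSR2-/- mice and 8.56 to 8.85 in WT mice, and none of them was near the low end of the values on every array. Their mean difference from the WT mean was 1.69, 1.62 and 0.33 in KSR2-/- mice 1 to 3. The 8 adipocyte markers gave -0.84, -0.53 and 0.40 in KSR2-/- mice 1 to 3, with 6 of the 8 lower. In bulk tissue, fewer cells of a type and less RNA per cell cannot be told apart, and the part of these cell types in the members' differences was not tested. Of the other marker lists, lymphocyte markers were higher in 6 of 6 genes (array means 6.75 to 7.13 in KSR2-/- fat and 6.05 to 7.20 in WT fat), stromal progenitor markers in 4 of 9 (9.57 to 10.09 and 9.24 to 10.20) and endothelial markers in 5 of 7 (6.73 to 7.33 and 6.73 to 7.31). Erythroid markers were higher in 2 of 3 (5.05 to 5.26 in KSR2-/- fat and 4.52 to 5.10 in WT fat), with Hba-a1 below the 20th percentile on every array. Mesothelial markers were higher in 5 of 6 (6.79 to 8.76 in KSR2-/- fat and 7.06 to 7.77 in WT fat), with the highest mean in KSR2-/- mouse 3. Skeletal muscle markers were lower in 5 of 6 (4.75 to 5.55 in KSR2-/- fat and 4.33 to 7.19 in WT fat) and mammary epithelial markers in 7 of 8 (4.18 to 5.40 and 4.35 to 6.28), with the highest means of both in WT mouse 3.

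KSR2-/- mice 1 and 2 lay below all WT mice in 9 of the 10 transferases and above them in 0. In the 25 other members they lay below all WT mice in 4 and above them in 7. KSR2-/- mouse 3 lay inside the WT range in 3 of the 10 transferases and above it in Gstm1 and Gstm2. The share of all genes with these patterns was not counted, so how unusual the counts are cannot be read from them. Within the higher-numbered series all 10 transferases were lower, with a median of -1.24. Within the lower-numbered pair 7 of 10 were lower, with a median of -0.22. For the 25 other members the medians were 0.27 (higher-numbered animals) and -0.02 (lower-numbered pair), and 10 of them had opposite signs in the 2.

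The 11 members with an unadjusted p under 0.05, picked on the same 6 arrays, all had the larger difference in the higher-numbered series. The share of all genes with that pattern was not counted. In the lower-numbered series the difference is 1 array minus 1, and its WT array had the Gapdh sign of RNA degradation (4.18 log2). Hmox1 differed by 3.14 between the higher-numbered animals and by 0.33 between the lower-numbered ones, Srxn1 by 1.99 and 0.20, and Gsta4 by -3.23 and -1.03. For Gclm (1.10 and 0.68), Gpx3 (-1.58 and -0.55) and Sod1 (-0.48 and -0.44) the 2 values were closer.

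**Figure D4:**
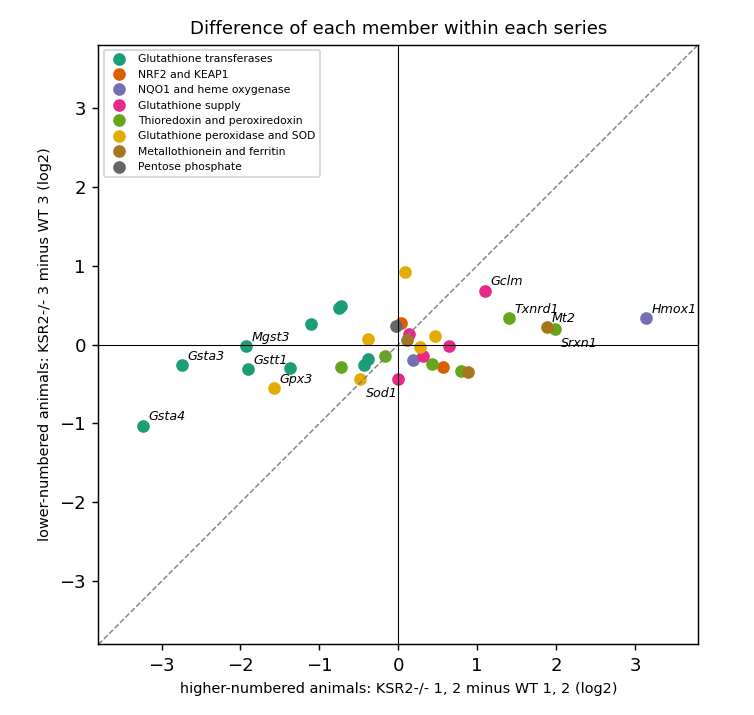
KSR2-/- minus WT difference of each of the 35 members (log2) within the higher-numbered animals, on the horizontal axis, and within the lower-numbered pair, on the vertical axis, with equal scales and a dashed line of equality. The named members are those with an unadjusted p under 0.05. In 30 of the 35 members the difference is larger in the higher-numbered animals, as for Hmox1 at 3.14 and 0.33.

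Without KSR2-/- mouse 3, limma called 6 members at an adjusted p under 0.05, when 4.49% of all genes were called (3.16% higher and 1.33% lower). Hmox1 (3.06, limma adjusted p = 0.0072) and Srxn1 (1.92, 0.0102) were higher. Gsta3 (-2.58, limma adjusted p = 0.0113), Gsta4 (-3.21, 0.0151), Mgst3 (-1.73, 0.0202) and Gstt1 (-1.79, 0.0432) were lower. Without any other single array no member was called. The choice of this array was made after the values were known, and it is the KSR2-/- animal nearest to WT, so these calls describe the other 5 arrays.

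Other genes of the same systems were taken from a list of pathway genes. Of its 84 non-transferase genes measured, none passed limma over all genes. The regulators and partners of NRF2 were higher in 7 of 10, with 3 at an unadjusted p under 0.05, where 6.71% of all genes were higher at that level. Among them were the small Maf partners Maff (0.98, SE 0.22, unadjusted p = 0.00315, limma adjusted p = 0.227) and Mafg (0.75, SE 0.23). The other small Maf on the list, Mafk, differed by 0.02 (SE 0.16), with overlapping groups. The list joins genes of different roles, so its counts give no direction of NRF2 activity. Maff measured 6.39, 6.67 and 6.15 in KSR2-/- mice 1 to 3, against 5.12, 5.41 and 5.75 in WT mice 1 to 3, with every KSR2-/- value above every WT value.

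Of 13 further NRF2 target genes, 9 were higher and 4 of them at an unadjusted p under 0.05 (6.71% of all genes), with a median of 0.39. Blvra, which reduces the biliverdin that heme oxygenase makes, measured 10.04, 10.29 and 10.24 in KSR2-/- mice 1 to 3 and 8.93, 9.18 and 9.57 in WT mice 1 to 3. The KSR2-/- values lay close together above the WT range (0.96, SE 0.20, unadjusted p = 0.00208, limma adjusted p = 0.210). Ptgr1, a reductase of reactive lipids, differed by 1.46 (SE 0.44), the microsomal epoxide hydrolase Ephx1 by 1.14 (SE 0.36) and Abcc3, an exporter of conjugates, by 0.87 (SE 0.27). Abcc2, another exporter, was lower with separated groups (-0.26, SE 0.15) but read below the 20th percentile of all values on every array.

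In glutathione turnover, 8 of 12 genes were lower, and Ggt5, which cleaves glutathione conjugates such as leukotriene C4, was the 1 at an unadjusted p under 0.05 (5.38% of all genes were lower at that level). Ggt5 measured 8.13, 8.08 and 8.21 in KSR2-/- mice 1 to 3, against 8.84, 8.74 and 8.71 in WT mice 1 to 3. On this probe set all KSR2-/- mice lay below the WT mice (-0.62, SE 0.14, unadjusted p = 0.00309, limma adjusted p = 0.227), and its 2 other probe sets gave -0.30 and -0.01. Of 23 further peroxide and thiol repair genes, 14 were lower, 9 higher and 0 at an unadjusted p under 0.05. NADPH-producing enzymes were lower in 8 of 9, also with 0 at that level, and the iron and metal genes were higher in 7 of 11.

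The NADPH oxidase list, 5 of whose 6 measured genes were higher, had a median of 1.55 log2. The 1 lower gene, named after its value was seen, was Nox4 (-0.22), an oxidase that is not the phagocyte enzyme. Cyba, the membrane subunit p22phox, measured 11.10, 11.16 and 9.46 in KSR2-/- mice 1 to 3, against 8.88, 8.91 and 9.05 in WT mice 1 to 3 (1.63, SE 0.44, unadjusted p = 0.00756, limma adjusted p = 0.259). Ncf4, a cytosolic subunit, differed by 1.62 (SE 0.44, unadjusted p = 0.00793, limma adjusted p = 0.261). On the arrays the list's mean was 1.81, 1.50 and 0.24 above the WT mean in KSR2-/- mice 1 to 3, beside 1.69, 1.62 and 0.33 for the macrophage markers. The phagocyte subunits Cybb, Cyba, Ncf1 and Ncf4 are themselves expressed by macrophages, and the list was counted apart from the members.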

How the data were processed

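Total RNA from white adipose tissue of 6 mice was hybridized to 1 Affymetrix array each. The deposited values are RMA intensity values on a linear scale, with RMA named in the submitters' processing notes and the scale read from the values. Log2 was taken with no pseudocount. Of 45101 probe sets, 64 were controls, 34945 had 1 gene symbol, 932 several and 9160 none listed. Each of 18193 genes was represented by the brightest of its single-gene probe sets. KSR2-/- and WT were compared with limma 3.58.1 (R 4.3.3, lmFit, eBayes without trend), two-sided, and p-values were adjusted over all genes by Benjamini-Hochberg. Errors of differences are those of the moderated fit (median SE 0.22 log2), and the number of arrays limits the precision. Replicates were numbered in accession order. All 40 members are named, with the 8 further genes in each direction of smallest unadjusted p whose groups did not overlap, 6 in the lower direction. Members and lists were chosen with earlier results of these data known. On simulated data of 18193 genes, 24% of genes changed 2-fold and 70% of those changed 4-fold were recovered, with 1 false call. The simulation drew independent normal errors with the same SD in both groups. It did not model the spread among the KSR2-/- mice, so its rates need not hold for these arrays. Alternatives were a filter on dim genes, other uses of probe sets, other normalization, eBayes with trend, the animal number series as a block, a Gapdh covariate and leaving out each array.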

Additional observations from a re-analysis of the deposited data

How the results depend on the processing

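No member and no further pathway gene passed the adjusted threshold under any of the 8 alternatives that kept all 6 arrays. Leaving out 1 array gave 0 to 6 members and 0 to 9 further genes, the highest counts without KSR2-/- mouse 3, when 4.49% of all genes passed. Members at an unadjusted p under 0.05 ran from 4 to 11 lower and from 1 to 6 higher with 1 array left out. The higher ones numbered 1 without KSR2-/- mouse 2, 3 without KSR2-/- mouse 1 and 3 with probe sets of a gene averaged, against 5 in the reported fit. Over all 18193 genes, those at that level in either direction numbered 2199 in the reported fit. With 1 array left out they ran from 1169 (without KSR2-/- mouse 2) to 2947 (without KSR2-/- mouse 3). They numbered 1445 without KSR2-/- mouse 1 and 2323 with probe sets averaged. The transferase median ran from -1.27 (without KSR2-/- mouse 3) to -0.46 (without KSR2-/- mouse 1), that of the other members from 0.05 (without WT mouse 1) to 0.25, and their difference from -1.50 to -0.69, all with the reported sign. Of 489 member values under the 14 alternatives, 466 kept direction and side of the threshold, 6 passed it without KSR2-/- mouse 3, and 17 in 9 members changed sign; the cause was not tested. With probe sets averaged the changed values were 0.08 for Gclc, -0.06 for Txn1 and 0.01 for Prdx2, and with quantile normalization repeated -0.01 for Nqo1. With 1 array left out, values ran from -0.05 to 0.46 for Nfe2l2, -0.07 to 0.45 for Keap1, -0.12 to 0.22 for Nqo1, -0.27 to 0.01 for Gclc, -0.13 to 0.43 for Gsr, -0.15 to 0.33 for Slc7a11, -0.41 to 0.06 for Prdx2 and -0.09 to 0.23 for Pgd. Over all genes 1 passed in the reported fit, 816 without KSR2-/- mouse 3, 16 with arrays centred on their median, 12 with dim genes filtered out, 10 with trend, 9 without WT mouse 3, 6 with the Gapdh covariate, 2 with quantile normalization repeated, and 0 with the series as a block, with every probe set fitted or without any other array. Single animals could not be paired, since their labels share no replicate number, and the animal number series served as the block.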
